A study of Mus musculus with 18 samples.

Results

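The open chromatin of the lysosomal cathepsin genes *Ctsa*, *Ctsb*, *Ctsc*, *Ctsd*, *Ctsf*, *Ctsh*, *Ctsk*, *Ctsl*, *Ctss*, and *Ctsz* was described in liver macrophages (LMs). Regions were taken as belonging to a gene when their midpoint lay in the gene body or within 10 kb of either end, which gave 45 of the 69499 open regions of the study. All 10 genes held at least 1 region, and 2 regions that lie between *Ctsk* and *Ctss* were within 10 kb of both genes, so there were 47 pairs of a gene and a region. The LMs came from male C57BL/6J mice that carried floxed *Rev-erb*α and *Rev-erb*β, received an adeno-associated virus at 8 weeks of age, and were then fed a high-fat, high-sucrose diet (HFHSD) for 4 weeks. Controls received AAV-TBG-GFP, *Reverb*-hDKO mice received AAV-TBG-CRE, and *Reverb/Scap*-hTKO mice received the same CRE virus and also carried floxed *Scap*. The TBG promoter is active in hepatocytes, so the deletions were aimed at hepatocytes and the LMs studied here were not their target. Fast-ATAC-Seq, in which a transposase cuts accessible DNA and leaves sequencing adapters there, was performed at ZT10 and ZT22 (hours after lights on) with 3 replicates per group, or 18 libraries in 6 groups. The deposited list of regions was called on merged reads and holds positions only, so no depth, no replicate error, and no difference between genotypes or times can be given for any cathepsin gene.

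Cathepsins are the main proteases of the lysosome. Most are cysteine proteases, *Ctsd* encodes an aspartic protease, and *Ctsa* a serine carboxypeptidase. Macrophages use them to digest what they engulf and to trim antigens and the invariant chain of MHC class II. Many lysosome genes are bound at their starts by TFEB, TFE3, and MITF, which recognize an E-box with the letters TCACGTG, and macrophage genes are often bound by PU.1, C/EBP, AP-1, and IRF factors.

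The sequences on which the description rests are those of the *Ctsb* first intron, which holds every listed SCAP-dependent locus found at these genes, those of single regions and starts with a TFE, AP-1, PU.1, IRF, or SREBP motif, and the region nearest to *Ctsk*, shown for its repeats. They are read on the plus strand of mm9, 5′ to 3′, from the NCBIM37 assembly. Capitals mark the motifs searched (their letters are given with the results), and regions without capitals held none of them. Annotated untranslated sequence is left out except for a short stretch around a site.
*Ctsb* listed locus, chr14:63742730-63742880: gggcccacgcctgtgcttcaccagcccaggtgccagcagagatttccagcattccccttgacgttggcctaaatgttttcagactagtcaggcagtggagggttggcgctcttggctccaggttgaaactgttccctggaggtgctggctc
*Ctsb* listed locus, chr14:63747643-63747793: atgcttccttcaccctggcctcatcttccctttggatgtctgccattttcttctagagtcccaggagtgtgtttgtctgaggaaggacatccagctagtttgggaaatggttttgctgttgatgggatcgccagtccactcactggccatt
*Ctsb* listed locus, chr14:63748033-63748214: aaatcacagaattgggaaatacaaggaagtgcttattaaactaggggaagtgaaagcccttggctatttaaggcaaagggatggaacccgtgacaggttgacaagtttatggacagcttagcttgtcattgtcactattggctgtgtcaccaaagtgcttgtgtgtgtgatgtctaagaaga
*Ctsb* listed locus, chr14:63749614-63749858: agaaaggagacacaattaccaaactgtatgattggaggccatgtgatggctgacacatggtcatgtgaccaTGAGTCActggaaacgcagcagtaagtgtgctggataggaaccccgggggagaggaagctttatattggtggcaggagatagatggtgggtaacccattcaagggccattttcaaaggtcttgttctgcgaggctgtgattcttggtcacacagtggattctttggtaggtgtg
*Ctsb* not listed, chr14:63751175-63751403: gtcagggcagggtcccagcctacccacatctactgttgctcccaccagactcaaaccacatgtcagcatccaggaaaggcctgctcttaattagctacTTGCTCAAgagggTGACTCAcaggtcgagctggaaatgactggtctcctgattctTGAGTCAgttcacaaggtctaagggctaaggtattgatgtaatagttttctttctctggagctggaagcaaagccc
*Ctsh* exon 8, chr9:89962361-89962511: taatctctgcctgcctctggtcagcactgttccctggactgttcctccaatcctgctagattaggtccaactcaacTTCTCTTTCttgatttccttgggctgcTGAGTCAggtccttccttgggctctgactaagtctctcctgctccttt
*Ctsd* start, chr7:149573944-149574050: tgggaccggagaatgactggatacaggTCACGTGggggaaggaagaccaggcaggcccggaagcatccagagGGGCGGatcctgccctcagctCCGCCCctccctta
*Ctsc* start, chr7:95426447-95426594: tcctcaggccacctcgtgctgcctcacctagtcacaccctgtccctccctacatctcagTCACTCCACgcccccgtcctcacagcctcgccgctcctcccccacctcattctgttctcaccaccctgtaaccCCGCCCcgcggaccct
Between *Ctsk* and *Ctss*, chr3:95321592-95321822: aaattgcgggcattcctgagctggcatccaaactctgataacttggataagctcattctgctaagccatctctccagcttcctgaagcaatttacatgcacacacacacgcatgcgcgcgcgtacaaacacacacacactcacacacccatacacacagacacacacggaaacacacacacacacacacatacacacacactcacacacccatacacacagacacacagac
*Ctsa* start site, chr2:164659260-164659284: TCACGTGAtgcagatgcTCACGTGA
*Ctss* start site, chr3:95330687-95330713: GAAACCGAAatgaaagttcACTTCCTC

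Cathepsin genes were well covered by open regions. *Ctsb* held 8, *Ctsh* 7, *Ctsc* and *Ctss* 6 each, *Ctsd* 5, *Ctsa* and *Ctsz* 4 each, *Ctsl* 3, and *Ctsf* and *Ctsk* 2 each. The median was 4.5 regions per gene, beside a median of 2 over all 22367 protein-coding genes (quartiles 0 and 5). Over 40 other lysosome genes the median was 5, so this coverage was not particular to the cathepsins. The share of all protein-coding genes with at least 1 region was 74.4%, beside 10 of 10 cathepsin genes.

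The members differ in length from 5784 bp for *Ctsf* to 32804 bp for *Ctsc*, so the regions were also expressed per 10 kb of gene and flanks. By this density *Ctsb* came first with 1.84 regions per 10 kb. *Ctsh* followed with 1.67, then *Ctsa* with 1.42, *Ctsd* with 1.36, *Ctsz* with 1.27, *Ctss* with 1.21, *Ctsc* with 1.14, and *Ctsl* with 1.11. *Ctsf* with 0.776 and *Ctsk* with 0.665 came last. The median of the members was 1.24 regions per 10 kb and that of all protein-coding genes 0.4695 (quartiles 0 and 1.037), and all 10 members lay above the latter. Medians of other gene lists were 1.01 for other lysosome genes, 1.07 for hepatocyte markers, and 1.02 for sinusoidal endothelial markers. They were 0.933 for macrophage markers and 0.562 for stellate cell markers. Of all protein-coding genes, 8.08% were at least as dense as *Ctsb* and 40.2% at least as dense as *Ctsk*. Without replicate values, neighbors in this order cannot be told apart beyond their counts.

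**Figure D1:**
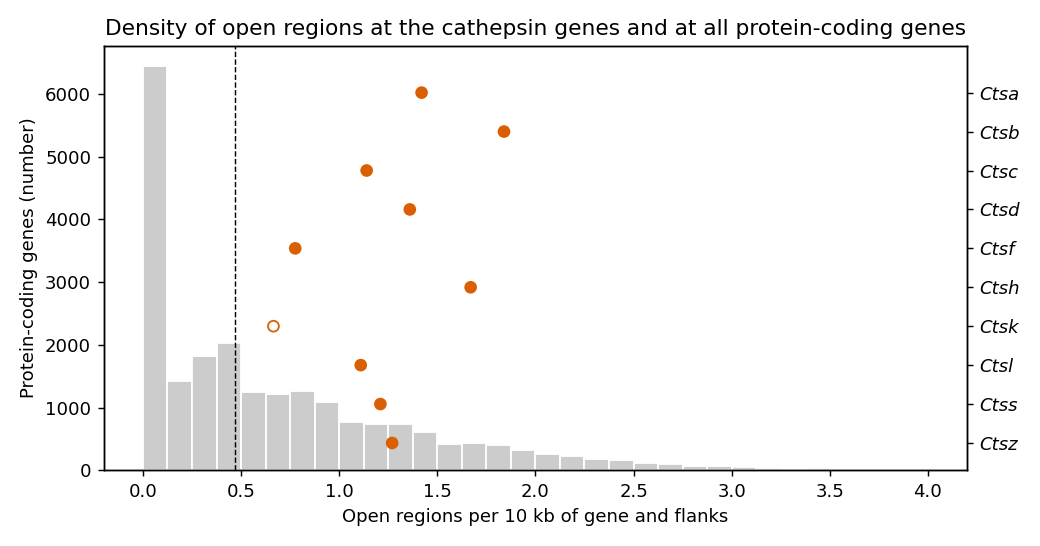
Gray bars (left axis) are the numbers of protein-coding genes by open regions per 10 kb of gene and 10 kb flanks, with the dashed line at their median of 0.4695, and 18 genes above 4 are not drawn. Each point is 1 cathepsin gene (right axis), open for *Ctsk*, which had no region at its start, and all 10 points lie to the right of the dashed line.

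Nearly all of these genes were open at the start. A region with its midpoint within 1000 bp of an annotated start was found for 9 of 10 members, beside 56.7% of all protein-coding genes, and *Ctsk* was the exception. The midpoint nearest to the 5′ end of the gene lay 2 bp upstream in *Ctsd* (signed distance -2 bp), at -10 bp in *Ctsc*, and at -154 bp in *Ctsl*. It lay inside the gene in *Ctss* and *Ctsz* (40 bp each), *Ctsa* (51 bp), *Ctsf* (86 bp), *Ctsb* (110 bp), and *Ctsh* (366 bp). In *Ctsk* the nearest midpoint was 18499 bp from the 5′ end, past the other end of the gene. The median absolute distance of the members was 68.5 bp, beside 492 bp over all protein-coding genes.

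By place, 18 of the 45 regions (40%) lay within 1000 bp of a start of any protein-coding gene. Of the others, 14 (31.1%) lay in introns, 9 (20%) between genes, and 4 (8.89%) in exons. Over all regions these shares were 28.3%, 32.9%, 35.3%, and 3.42%. Exons of every annotated transcript of protein-coding genes were counted, coding or not, and neighboring *Ctsh* regions in exon 8 were among the 4. Of the 47 pairs, 15 were upstream of the gene, 30 in its body, and 2 downstream, and the downstream pairs were the regions that *Ctsk* shares with *Ctss*. Downstream pairs thus made up 4.26% at the cathepsin genes and 19.9% over all protein-coding genes.

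**Figure D2:**
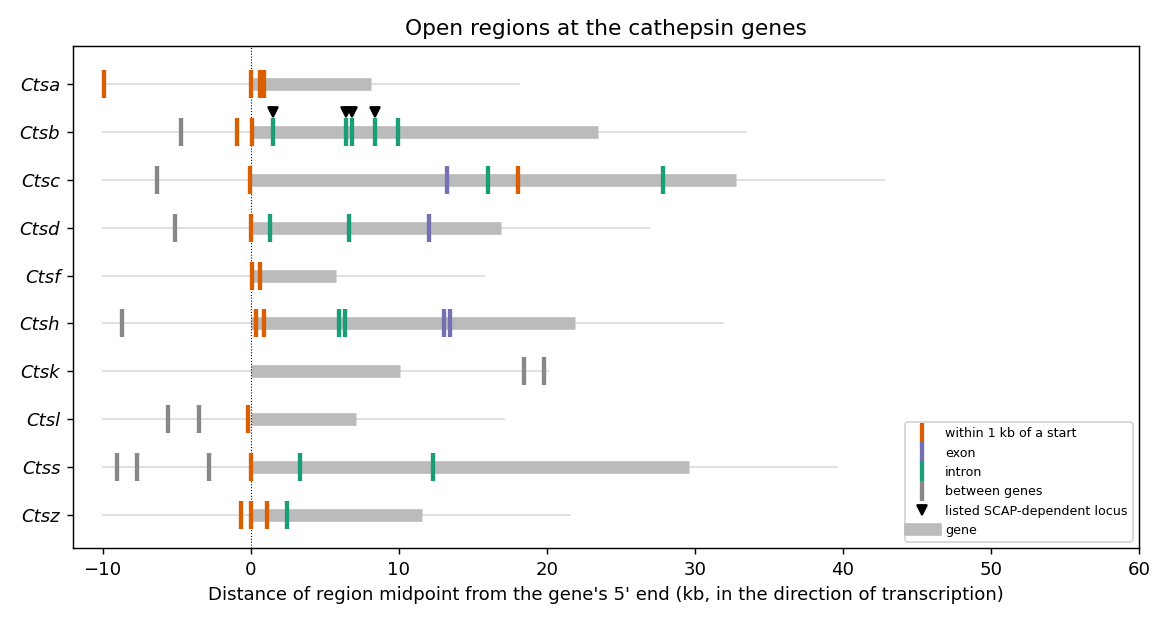
Each row is 1 cathepsin gene, drawn in the direction of transcription with its 5′ end at 0, and the thin line reaches 10 kb beyond either end. Vertical marks are midpoints of open regions colored by place, and triangles are listed SCAP-dependent loci, all 4 of which lie in *Ctsb*, while *Ctsk* has marks only beyond its 3′ end.

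*Ctsb*, a cysteine protease that is both an endopeptidase and a dipeptidyl carboxypeptidase, is located at chr14:63741302-63764758 on the plus strand and had the most regions. The region at its start, chr14:63741308-63741516 (209 bp), began just inside the 5′ end, and 1 of 151 bp lay 916 bp upstream. Farther upstream, at -4691 bp, chr14:63736445-63736778 was the widest of all 45 regions at 334 bp. The 6 regions in the gene body all had their midpoint in the first intron, which is 10750 bp long and makes up 45.8% of the gene. The other introns and the exons held 0 midpoints. The intron begins at position 63741403, so the start region also covered part of the first exon. The first introns of the 10 members together held 10 of the 30 regions in gene bodies, spread over 4 genes (*Ctsa*, *Ctsb*, *Ctsd*, and *Ctsh*).

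The study lists 377 rhythmic enhancer loci in LMs as dependent on hepatocytic REV-ERBs and 338 as dependent on SCAP. Of the 45 cathepsin regions, 4 held the center of a SCAP-dependent locus, 0 held one of the other list, and 41 held none. All 4 were in the *Ctsb* first intron. They were chr14:63742730-63742880 (151 bp, 1503 bp from the 5′ end), chr14:63747643-63747793 (151 bp, 6416 bp), chr14:63748033-63748214 (182 bp, 6821 bp), and chr14:63749614-63749858 (245 bp, 8434 bp). The share was 8.89% at the cathepsin genes and 1.03% over all regions, but this rests on 1 gene, and the study drew its loci from open chromatin of these cells. Loci are 1000 bp wide and the second and the third had centers 406 bp apart, so their spans overlap and they are not separate measurements. *Ctsb* was 1 of 6 protein-coding genes with 4 or more SCAP-dependent loci in the gene and flanks, out of 257 with at least 1, and the most at any gene was 5. The paper describes its enhancers as intergenic, with open regions at coding genes and long noncoding RNAs filtered out. By the annotation used here the 4 loci lie inside *Ctsb* and do not meet that description. The paper scored loci by RNA reads around them, and whether these came from the *Ctsb* transcript was not tested. The last region of the intron, chr14:63751175-63751403 (229 bp, 9987 bp from the 5′ end), is not on either list.

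The 4 listed regions of *Ctsb* shared few of the letters searched. AP-1 (letters TGAGTCA, on either strand) was found in chr14:63749614-63749858 only, at position 63749685, and none of the motifs was in the other listed windows. The unlisted chr14:63751175-63751403 was the richest in the gene, with AP-1 letters at 63751286 and 63751328 and a C/EBP motif (TTGCNNAA) at 63751273. No window at *Ctsb* held the E-box letters CACGTG or a REV-ERB/ROR or SREBP motif, and other forms of the E-box were not searched. The lack of a match says only that these letters were not in the window searched.

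*Ctsl*, an endopeptidase of broad activity, at chr13:64464522-64471614 on the minus strand, had the opposite layout, with 3 regions upstream and 0 in its body. The widest of them, chr13:64471642-64471895 (254 bp), was 154 bp upstream of the GENCODE 5′ end. The RefSeq start of *Ctsl* is upstream of this 5′ end, at -214 bp, and from that start the midpoint was 60 bp inside the gene. This region held a GC box (GGGCGG, the letters bound by SP1) in its central window at position 64471708. The upstream regions at -3476 and -5553 bp, both of 151 bp, each held REV-ERB/ROR letters (TGGGTCA and TAGGTCA), and the nearer one also an E-box (CACGTG).

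*Ctsd*, which encodes the main aspartic protease of the lysosome, lies at chr7:149557053-149573943 on the minus strand. Its start region chr7:149573841-149574050 (210 bp) was centered on the 5′ end and held the E-box TCACGTG at position 149573971, 31 bp upstream of the 5′ end (-31 bp), beside GC boxes. RefSeq places the *Ctsd* start 211 bp farther downstream, from which the midpoint of the region was at -213 bp. The other regions of *Ctsd* were at 1309 bp (230 bp wide, in intron 1), 6621 bp (intron 4), and 12049 bp (exon 9, the last), and at -5124 bp upstream.

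*Ctsf*, a further cysteine endopeptidase, is the shortest member and had 2 regions, both near the start at chr19:4855137-4855293 (157 bp) and at 656 bp (151 bp). The start window held REV-ERB/ROR letters at 4855230 and a GC box at 4855142. *Ctsf* was also among the genes whose start call depended on width, since neither of its regions reached 200 bp.

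*Ctss*, a protease of the late steps of invariant chain processing in antigen-presenting cells, lies at chr3:95330708-95360325, and its start had the lowest G and C content among the regions at the 5′ ends of the members. Its region chr3:95330673-95330823 had the commonest width of 151 bp, and its window was 43% G and C with a CpG ratio (observed over expected) of 0.288. It was the only one of the 45 windows with the PU.1 letters GAGGAAGT, on the minus strand at position 95330706, 1 bp from the 5′ end. An IRF motif (GAAANNGAA) at 95330687, 17 bp upstream (-17 bp), stands beside it in the 27 bases printed above. Farther regions of *Ctss* were at -9001, -7659, and -2837 bp upstream and at 3312 and 12289 bp in introns 2 and 3. The region at 3312 bp lay within 1000 bp of the start of the pseudogene *Hmgb1-ps5*.

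*Ctsk*, the collagen-cleaving cathepsin known from osteoclasts, is the upstream neighbor of *Ctss*, with 17423 bp between them. At chr3:95303208-95313284 it had no open region in its body or at its start, and the nearest midpoint upstream was 39638 bp away. Its only regions were 8423 and 9765 bp past its end, in the interval before *Ctss*. The first of these, chr3:95321592-95321822 (231 bp), held a run of CA repeats, with 48 bases of its 151-bp window in runs of 4 or more CA pairs. It was the only member window with such a run, beside 3.81% of all windows, and 0.0577% of all windows had as many bases in them.

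Exopeptidases and their partners formed the rest of the set. *Ctsa*, the carboxypeptidase that also protects β-galactosidase and neuraminidase in the lysosome, lies at chr2:164658373-164666532. It had 4 regions, none narrower than 186 bp. The region at its 5′ end was chr2:164658316-164658532 (217 bp), and chr2:164659169-164659404 (236 bp) lay at a second start that RefSeq places 900 bp downstream of the GENCODE 5′ end. This latter region held 2 E-boxes, both reading TCACGTGA, at chr2:164659260-164659267 and chr2:164659277-164659284, in annotated untranslated sequence. Their centers were at -10 bp and 7 bp from the second start. The 3 regions of *Ctsa* near its starts also lay within 1000 bp of a start of *Neurl2*, and the region at -9889 bp, chr2:164648385-164648583 (199 bp), was at a start of *Zswim1* and held AP-1 letters at 164648464, so these regions cannot be assigned to *Ctsa* alone.

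*Ctsc*, a dipeptidyl peptidase that activates the serine proteases of granules, is the longest member (chr7:95426595-95459398). Its start region chr7:95426447-95426724 (278 bp) was the widest at any 5′ end of the set. Its central window held a GC box at 95426579, and across the edge of that window the region held the only SREBP motif of the set (TCACNCCAC) at 95426506. The remaining regions of *Ctsc* were narrow, between 151 and 155 bp, at -6347, 13256, 16040, 18065, and 27876 bp. The last, chr7:95454394-95454548, was the farthest from a 5′ end among all member regions and held REV-ERB/ROR letters.

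*Ctsh*, an aminopeptidase, lies at chr9:89948990-89970927. Its region nearest to the 5′ end was chr9:89949263-89949449 (187 bp), and the next, at 925 bp, was 309 bp wide. Beyond the start, *Ctsh* had pairs of 151-bp regions at 5961 and 6397 bp and at 13061 and 13446 bp. The last of these, chr9:89962361-89962511, in exon 8 of a transcript with 12 exons, held AP-1 letters at 89962464 and an IRF motif at 89962437. That transcript was the annotated one with the most exon bases at this position. The printed sequence has stop codons in every forward frame and overlaps no annotated untranslated sequence, so the region is not read as coding sequence. *Ctsz*, a carboxypeptidase at chr2:174252994-174264540 on the minus strand, had all 4 regions between -664 and 2489 bp. Its start region chr2:174264415-174264585 (171 bp) had the highest G and C content of the set, 75.5%, and 4 GC boxes in its window, of which 2 overlap.

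The widths of the cathepsin regions were close to those of the whole list. Their median width was 157 bp (range 151 to 334 bp), beside 160 bp over all regions, and 20 of 45 (44.4%) had the commonest width of 151 bp, beside 46.5%. Of the whole list, 2 regions were narrower than 151 bp, so this width is nearly its lower limit. Only the *Ctsb* region at -4691 bp and the *Ctsh* region at 925 bp reached 2 times that width. The windows at starts had a median of 61.6% G and C (range 41.1% to 75.5%) and those elsewhere 49% (31.8% to 58.9%), beside 61.6% and 51% over all regions. The median CpG ratio was 0.613 at member starts and 0.163 elsewhere, beside 0.711 and 0.221.

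**Figure D3:**
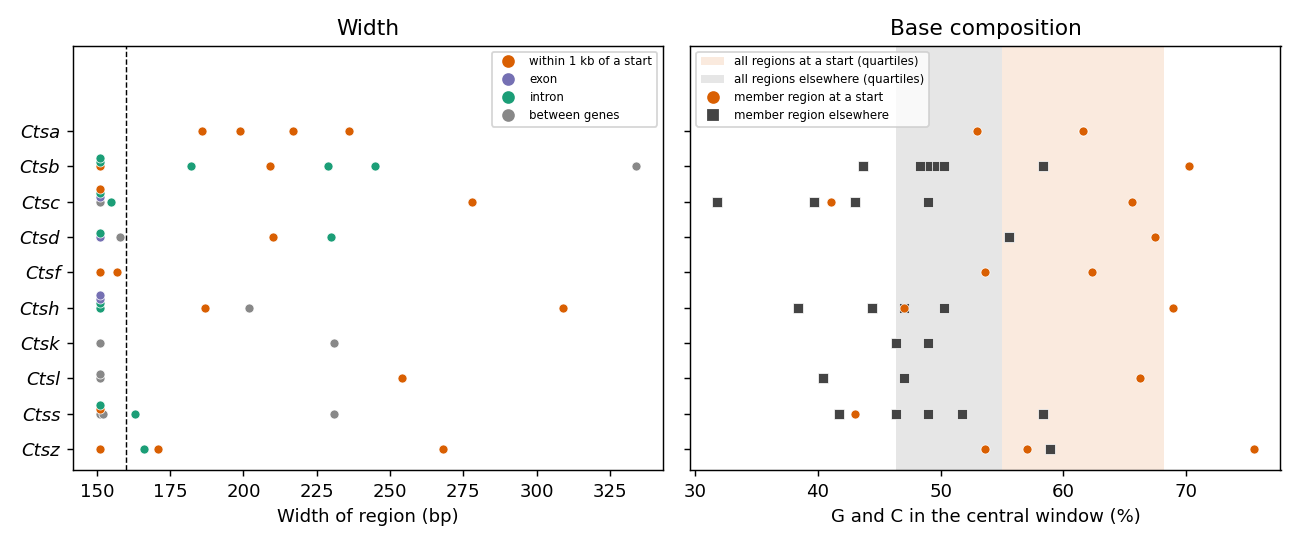
Left, width of each region in bp by gene, colored by place, with equal widths in a gene stacked and the dashed line at the median of all regions, 160 bp. Right, percentage of G and C in the central 151-bp window, with shaded bands for the quartiles of all regions at starts and elsewhere, where the *Ctss* start (43%) lies far below and the *Ctsz* start (75.5%) above the band of all starts.

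Motifs were counted in the central 151 bp of each region on both strands. At least 1 of 9 motifs was found in 20 of 45 windows (44.4%), beside 41.4% of all windows, a share near that of the list as a whole. AP-1 was in 4 windows (8.89%, beside 5.69%), C/EBP in 4 (8.89%, beside 8.82%), REV-ERB/ROR in 4 (8.89%, beside 5.35%), IRF in 3 (6.67%, beside 4.21%), and PU.1 in 1 (2.22%, beside 3.34%). The SREBP motif was in 0 windows, beside 0.717% of all. GC boxes were in 7 (15.6%, beside 15.3%), and at starts in 6 of 18 windows, beside 39.1% of all start windows. The E-box CACGTG was in 3 windows (6.67%, beside 5.01%), and its longer form TCACGTG, which contains it, in 2 (4.44%, beside 2.49%), those of *Ctsa* and *Ctsd*. The side on which a share fell depended on the setting for some motifs. AP-1 was below the share of all windows in a window of 2 times the width (8.89%, beside 9.29%) and in 1000 bp (17.8%, beside 19.5%). With the shorter letters AGGAAGT, PU.1 was in 5 windows (11.1%, beside 9.37%). GC boxes were below it in the whole region (15.6%, beside 18.2%) and in the doubled window (20%, beside 23.4%), and the SREBP motif was above it in the whole region with 1 match (2.22%, beside 0.901%). These are counts of a few windows and matches are a description of letters, not of bound factors.

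Counted by gene, 2 of the 9 members with an open start (22.2%) had TCACGTG in a window at a start, as did 10 of 39 other lysosome genes with an open start (25.6%) and 736 of 12693 protein-coding genes with one (5.8%). This count was added after the motifs had been seen. Genes with many annotated starts, such as *Ctsa* with 14, have more windows in which to find the letters.

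**Figure D4:**
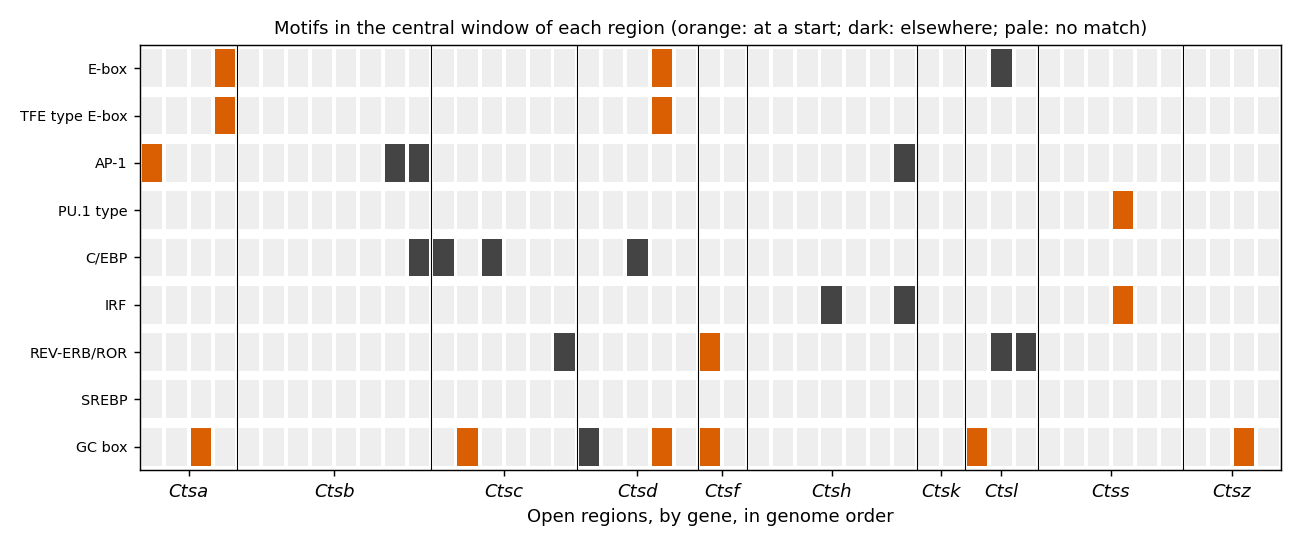
Columns are the 47 pairs of gene and region in genome order within each gene, and rows are the 9 motifs. A filled cell is at least 1 match in the central 151 bp, orange at a start and dark elsewhere, which shows the TCACGTG matches at *Ctsa* and *Ctsd* and the PU.1 and IRF matches together at the *Ctss* start, while the *Ctsk* columns are empty.

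Cathepsin genes outside the set looked different. Of the 12 other genes with a cathepsin symbol, 2 had an open start, *Ctse* (an aspartic protease) and *Ctso*, with 5 regions each. *Ctsw*, expressed in cytotoxic lymphocytes, had 2 regions but none at its start, and *Ctsg*, a serine protease of neutrophil granules, had 0. The 8 remaining genes (*Ctsj*, *Ctsq*, *Ctsr*, *Cts6*, *Cts8*, *Cts7*, *Ctsm*, and *Cts3*) form an array of cathepsins known from the rodent placenta at chr13:61101639-61671426. Over its 570 kb it held 0 of the 3015 regions of chromosome 13, although *Ctsl* on the same chromosome, 2.79 Mb away, had an open start. Without depth, this absence does not show that the chromatin of the array was closed.

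Among the partners of cathepsins, the cystatin genes *Cst3*, *Cstb*, and *Cst7*, which encode inhibitors of cysteine cathepsins, all had an open start (3 of 3), and so did the regulators *Tfeb*, *Tfe3*, and *Mitf* (3 of 3). Of 40 other lysosome genes, 39 had an open start. These shares of 100% and 97.5% stand beside 90% of the cathepsin set and 56.7% of all protein-coding genes.

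The sample titles give the cells as KC (Kupffer cells), and the paper calls them LMs, a term that also covers monocyte-derived macrophages. The cell type was checked on marker genes. An open start was found for 8 of 12 macrophage markers, 11 of 12 hepatocyte markers, 11 of 12 markers of sinusoidal endothelial cells, 4 of 12 of stellate cells, 2 of 12 of lymphocytes and neutrophils, and 3 of 12 genes of neurons and muscle. Among the macrophage markers, *Vsig4*, *Csf1r*, *Marco*, and *Cd163* had none. Over all protein-coding genes the share was 56.7%. The share of macrophage markers (66.7%) was near it, and those of hepatocyte and sinusoidal endothelial markers (91.7% each) were above it. The list therefore holds open starts of hepatocyte and endothelial markers as well as of macrophage markers, and these counts do not mark it as typical of macrophages. The part of each cell type in the cathepsin regions was not tested.

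**Figure D5:**
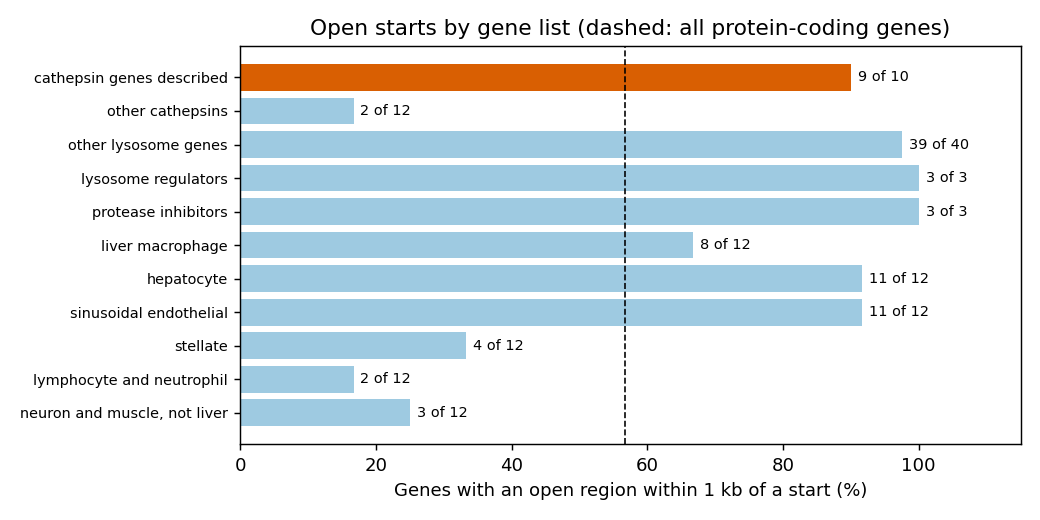
Bars show the percentage of genes of each list with an open region within 1 kb of a start, with counts beside them and the dashed line at 56.7% for all protein-coding genes. The cathepsin genes described (9 of 10) and the other lysosome genes (39 of 40) lie above the line, and the other cathepsins (2 of 12) below it.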

How the data were processed

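Fast-ATAC-Seq reads of LMs from 18 libraries were processed by the authors with the Kundaje laboratory pipeline, trimmed, and aligned to mm9 with Bowtie, and peaks were called on merged replicates. HOMER is named for read counts. Which caller and threshold were used and how peaks were joined is not given in the sources used here. The deposited list gives the position of each region and no value per library, so depth and its precision are unknown and no test was made. Starts were converted to count from 1.

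Regions were assigned by midpoint to GENCODE vM1 genes on NCBIM37, the assembly behind mm9, and no region ran past a chromosome end. Motifs were searched in 151-bp windows of 69362 regions on chromosomes 1 to 19, X, and Y. RefSeq starts (GRCm38.p6 table) were placed by exact match of their 300-base windows to mm9, which gave 9 windows of 8 members (no entry for *Ctsb* and *Ctsh*). Of the study's enhancer lists, only positions were read. Members, gene lists, and rules were chosen with earlier results of these data known. All members were named, and regions were named when nearest to a 5′ end, on an enhancer list, widest, farthest, or with TCACGTG or TGAGTCA in the window, and others where a result turned on them. Sequences were printed for a selection of these. That of the *Ctsl* start was left out because its RefSeq start is farther upstream and part may be untranslated. The assignment of regions and the motif search were checked on simulated data. Python 3.11.15, NumPy 2.4.6, and matplotlib 3.10.9 were used. The name of 1 gene of the lysosome list is not reported here.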

Additional observations from a re-analysis of the deposited data

How the results depend on the processing

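The count of 45 cathepsin regions rose to 69 with 20 kb flanks and was 14 with regions of at least 200 bp. It was 30 in gene bodies alone, 38 with 5 kb flanks, 45 with any overlap, 38 with regions up to 500 bp apart joined, and 41 without regions at starts of other coding genes (chosen after seeing the data). The last of these settings removed every region of *Ctsa*. The median density of 1.24 regions per 10 kb was 2.17 in gene bodies alone (0.138 over all protein-coding genes, with 8 of 10 members above) and 1.25 with 20 kb flanks (0.474, with 10 above). Open starts numbered 9 of 10 within 500 or 2000 bp or at the 5′ end only (54.5%, 59.5%, and 53.1% of all protein-coding genes), and 7 with regions of at least 200 bp (34.4%), without *Ctsf*, *Ctsk*, and *Ctss*. The median width of 157 bp was 168.5 bp after joining. Windows with a motif numbered 38 of 45 in 1000 bp (84.4%, beside 89.2% of all windows), 22 with the whole region (48.9%, beside 47%), 28 with a doubled window (62.2%, beside 61%), and 23 with the shorter PU.1 letters AGGAAGT (51.1%, beside 45.4%). The 4 SCAP-dependent loci at *Ctsb* were found with gene bodies alone and with 20 kb flanks. The region nearest outside the 10 kb limit was 10191 bp upstream of *Ctsd*, and the *Ctsa* region 9889 bp away was the last inside. No paired analysis was possible because values per library were not used here. Without depth, an absent region at *Ctsk* does not show closed chromatin.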
